A study of Arabidopsis thaliana with 24 samples.

Results

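The genes described are the chloroplast codes, that is every row of the deposited count table whose locus code begins with ATCG, the prefix given in Arabidopsis to genes of the chloroplast genome. There were 67 of them among 14557 rows. The rule used the code alone and no measured value, though it was set with earlier results of these data known. A further 33 rows with mitochondrial codes (prefix ATMG) served as a comparison.

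RNA was counted in 24 libraries of Arabidopsis thaliana seedlings of a line the labels name ulox and do not define, and all groups carry it. Plants 7 d old, raised on Murashige and Skoog medium with 1% sucrose under 16 h light and 8 h dark, stood for 1 h in water, or for 1, 2 or 3 h in a solution of 30% PEG (polyethylene glycol of molecular weight 8000), an osmotic agent. Its osmotic pressure was given as -2.0 MPa. Shoot and root RNA was taken separately from pools of 30 to 50 seedlings, which makes 8 groups of 3 libraries, named here A, B and C. Source names call the water treatment 1 h while titles code it as 0, so PEG at 2 h and 3 h is set against a control of another duration. The libraries were made by MARS-seq, which primes on poly(A) and counts 3′ ends. As a check of the tissue labels, RBCS1A, a nuclear gene for the small subunit of Rubisco, had 20788 to 35452 CPM (counts per 1000000 counts of the library) in shoot libraries and 97.0 to 306 in root libraries.

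Chloroplasts keep a small genome that encodes subunits of the photosystems, the ATP synthase, the large subunit of Rubisco, and part of the plastid ribosome and RNA polymerase. A bacterial-type polymerase that needs nuclear-encoded sigma factors and a phage-type polymerase transcribe it. Unlike nuclear mRNA, chloroplast mRNA mostly ends in a stem-loop with no stable poly(A) tail, and adenylated tails mark plastid RNA for decay. A method that primes on poly(A) therefore captures these transcripts poorly, and the counts below are those of the captured molecules.

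The files and the gene table used here do not pair the ATCG codes with gene names. The product of 3 codes is given here from notes on nuclear relatives in the RefSeq annotation of TAIR10.1, and other codes are given by code alone. ATCG00530 is noted as related to CemA, an envelope protein linked to proton extrusion, ATCG00660 as ribosomal protein L20 and ATCG01310 as ribosomal protein L2. RefSeq places genes of those names, on the chloroplast sequence (Pltd) of TAIR10.1, at Pltd:60741-61430 on the plus strand (cemA), Pltd:68512-68865 on the minus strand (rpl20), and, for rpl2, at Pltd:84337-85843 on the minus strand and Pltd:152806-154312 on the plus strand. The 2 copies of rpl2 have the same sequence, so their reads cannot be told apart. Which copy ATCG01310 stands for is not given, so its counts need not be those of both. The authors' build is not given in the sources used here, and these positions are RefSeq's.

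The longest run of A in the coding sequence of each of the 3 genes is given below in capitals. The stretches are on the sense strand, 5′ to 3′, with up to 25 coding bases on each side. All are exonic.

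cemA, Pltd:60741-60776: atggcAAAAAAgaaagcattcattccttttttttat

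rpl20, Pltd:68512-68546: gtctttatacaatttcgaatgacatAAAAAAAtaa

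rpl2, Pltd:84408-84464: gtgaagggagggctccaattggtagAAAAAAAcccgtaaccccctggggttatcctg

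The run is 6 bases long in cemA and 7 in both rpl20 and rpl2. Over the 84 protein-coding genes examined on the chloroplast sequence, the longest run was from 2 to 14 bases, with a median of 6, and 31 genes held a run of at least 7. In rpl20 the run lies close to the stop codon, and in cemA close to the start codon. Counts over all 12 shoot libraries were 82 for ATCG00530, 44 for ATCG00660 and 143 for ATCG01310. Where on a gene the reads lay is not held in a count table, so priming at these runs was not tested.

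The captured chloroplast RNA was a small part of every library. The 67 codes held 103871 counts over the shoot libraries and 6143 over the root libraries. Library totals ran from 1203312 to 6090852 in shoot and from 1597302 to 7029587 in root. In shoot the codes took between 0.137% and 0.416% of a library, with a median of 0.251%. In root they took between 0.00335% and 0.0367%, with a median of 0.0105%, so that no root library reached the lowest shoot library. Mitochondrial codes went the other way, with 0.170% to 0.300% in shoot and 2.41% to 6.96% in root.

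By group, the chloroplast share in shoot water was 0.296%, 0.416% and 0.215% in libraries A, B and C (mean 0.309% ± 0.101, SD, n = 3). After PEG for 1 h it was 0.240%, 0.267% and 0.225% (0.244% ± 0.0214). After 2 h it was 0.361%, 0.242% and 0.326% (0.310% ± 0.0609), and after 3 h it was 0.215%, 0.137% and 0.259% (0.204% ± 0.0616). The highest shoot library was water B and the lowest PEG 3 h B, and each PEG group overlapped water. The mean share at 3 h was 0.659 times that in water, within the spread of the libraries, and 0.927 times with library B left out of both groups. Counting error was much smaller than that spread, since the 95% Wilson interval of the lowest shoot library, PEG 3 h B, was 0.133% to 0.141%.

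In root water the share was 0.00976%, 0.00335% and 0.0113% (mean 0.00814% ± 0.00421, SD, n = 3). After PEG for 1 h it was 0.00936%, 0.0246% and 0.0326% (0.0222% ± 0.0118), after 2 h it was 0.00506%, 0.00831% and 0.0367% (0.0167% ± 0.0174), and after 3 h it was 0.00560%, 0.0130% and 0.0188% (0.0124% ± 0.00659). The means at 1 h, 2 h and 3 h were 2.73, 2.05 and 1.53 times that of water, and each PEG group overlapped water. Library C was the highest in all 4 root groups, and library A the lowest in the 3 PEG groups. With library C left out of every root group, the means were 0.00655% in water, 0.0170% at 1 h, 0.00668% at 2 h and 0.00928% at 3 h, which is 2.59, 1.02 and 1.42 times that of water. The lowest root library, water B, rested on 63 chloroplast counts, with a 95% Wilson interval of 0.00262% to 0.00429%.

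**Figure D1:**
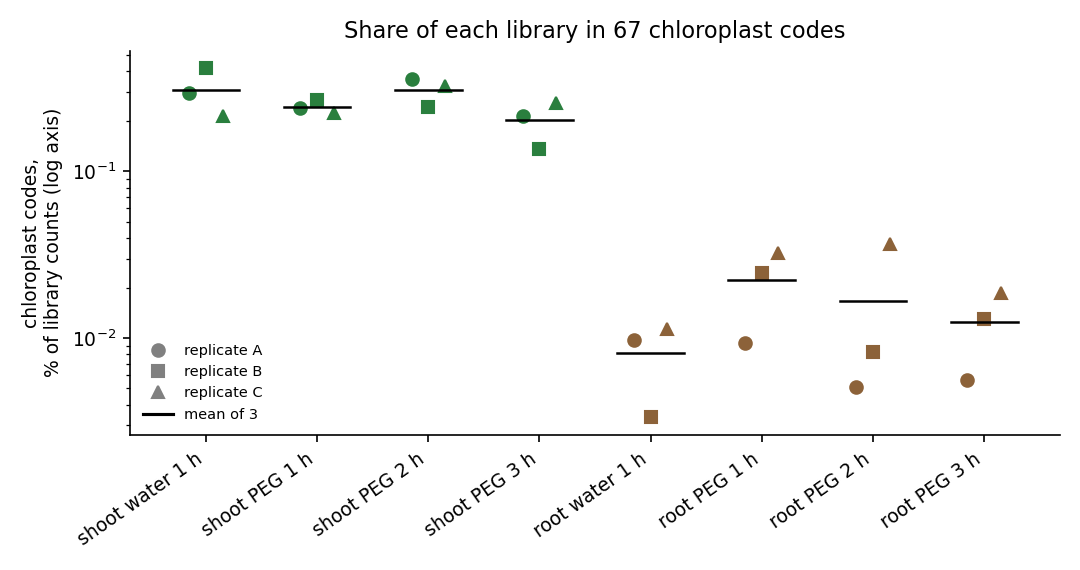
Chloroplast codes as a percentage of all counts in each library (log axis), by tissue and treatment, with 1 point for each of the 3 libraries of a group and a bar at their mean. All 12 shoot points lie between 0.137% and 0.416%, and all 12 root points lie at or below 0.0367%, with the PEG groups overlapping water in both tissues.

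The counts were unevenly spread over the codes. In shoot, the leading pair, ATCG00740 and ATCG00280, held 46.9% of all chloroplast counts, and the 10 leading codes held 84.0%. ATCG00740 alone had 28762 counts in shoot (27.7% of the chloroplast counts) and ranged from 19.8% to 32.3% of them between shoot libraries. ATCG00280 had 19936 (19.2%) and ranged from 14% to 24.1%. These were followed by ATCG00650 with 9755, ATCG00820 with 6019, ATCG00800 with 5379, ATCG00790 with 4394, ATCG00470 with 4299, ATCG00300 with 3737, ATCG00340 with 2980 and ATCG00810 with 1956. Over all 24 libraries 14 codes had 1000 counts or more, 23 had from 100 up to 1000 and 30 had under 100, down to 19. As gene lengths are not paired with the codes, these counts do not rank the levels of the genes.

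In shoot, 43 of the 67 codes had a count in every library, and 56 to 67 were seen in any single one. In root 11 codes were seen in every library and 20 to 41 in any single one, while 3 had no root count at all. A filter on low counts left 37 codes to be tested in shoot and 10 in root. The 30 codes not tested in shoot had a median of 41 counts over the shoot libraries. The most abundant of them had 509 and is described with the uneven codes further on.

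The first comparison was of the tissues in water. By summed counts relative to library totals, 65 of the 67 codes had a higher share in shoot water than in root water. Of the other two, ATCG00960 had 3 counts against 4 and ATCG00520 had 0 in both. Of the 10 codes that passed the filter in root libraries alone, 10 were lower in root and 0 higher (edgeR's quasi-likelihood test across all genes, Benjamini-Hochberg adjusted p under 0.05), with a median log2 change (root over shoot) of -5.34. Of all genes that passed there 20% were lower in root, with a median of 0.18 over these genes. The fit of all 24 libraries tested 37 codes, of which 35 were lower in root, 0 were higher and 2 were not called. Over all genes tested in that fit 53.3% were called, and 26.2% were called lower in root. Of those 37 codes 27 passed the filter through their shoot counts, the tissue where they are high, so the count and the median of the 37 describe the tested codes and carry no weight of their own. That median was -5.26, against -0.02 over all genes. Of the 37, 5 codes had no count in root water and 12 had 1 to 3, for which a fitted change is no bound, and with those 5 placed at a floor of 3 counts over the root water libraries the median was -4.86. DESeq2 gave an adjusted p to 64 codes and called 43 of them lower and 0 higher. Its share over all genes is not given here. The authors' deposited table marks 34 codes as called, all lower in root, among 4904 called of its 14557 rows. It marks 0 codes in any PEG comparison used here. Of 22 mitochondrial codes tested, 9 were higher in root and 0 lower, with a median of 1.38, beside 27.1% of all genes called higher and 26.2% lower. In bulk tissue, fewer cells with chloroplasts and less captured chloroplast RNA per cell cannot be told apart.

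ATCG00740 had 2155, 1911 and 1735 counts in the shoot water libraries and 65, 4 and 54 in root water. Its level was 966 ± 312 CPM (here scaled by TMM over both tissues) in shoot and 15.8 ± 13.1 in root (SD, n = 3), a log2 change of -5.90 with a standard error of 1.04 and an adjusted p of 7.79e-05. ATCG00340 had 207, 188 and 196 counts in shoot water and 4, 1 and 2 in root water, and its log2 change of -6.64 (standard error 0.52) had the smallest adjusted p of the codes, 7.17e-11. In both codes every shoot library lay far above every root library.

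The most negative fitted changes belonged to ATCG00790, ATCG00800, ATCG00710 and ATCG00330. ATCG00790 had 607 counts in shoot water and 2 in root water, a shoot-to-root ratio of 279 with a 95% counting interval of 77.0 to 2311. ATCG00800 had 840 against 3, a ratio of 258 with an interval of 87.8 to 1252. ATCG00710 had 40 against 0, which is at least 12.3-fold higher in shoot at a floor of 3 counts over the root group. ATCG00330 had 414 against 4, with a fitted log2 change of -6.92 and a standard error of 0.58. These intervals and the floor cover counting error alone.

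The least negative were ATCG00380, ATCG00290, ATCG00140 and ATCG01130. ATCG00140 had 28, 13 and 36 counts in shoot water and 9, 5 and 5 in root water, with a log2 change of -2.16 (standard error 0.60, adjusted p 0.00367). ATCG00290, with 7, 0 and 17 against 3, 1 and 0, had a log2 change of -2.66 (adjusted p 0.0217), and its call was lost without shoot water C (adjusted p 0.188), without root water C (0.0586) and when libraries were scaled by their totals alone (0.0519). ATCG00380 had 23 counts against 2, a ratio of 10.6 with an interval of 2.61 to 92.6. ATCG01130, with 11 against 6, was not called (log2 change -1.13, 95% interval -3.07 to 0.81). The other code not called was ATCG00400, which had 6 counts in shoot water and 0 in root water.

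The 3 codes given with a product had the following values in water. ATCG01310 (ribosomal protein L2) had 32 counts in shoot water and 1 in root water, a ratio of 29.4 with an interval of 4.92 to 1199. ATCG00660 (ribosomal protein L20) had 9 against 0, and ATCG00530 (CemA-related) had 1 against 0, and neither was abundant enough to be tested.

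**Figure D2:**
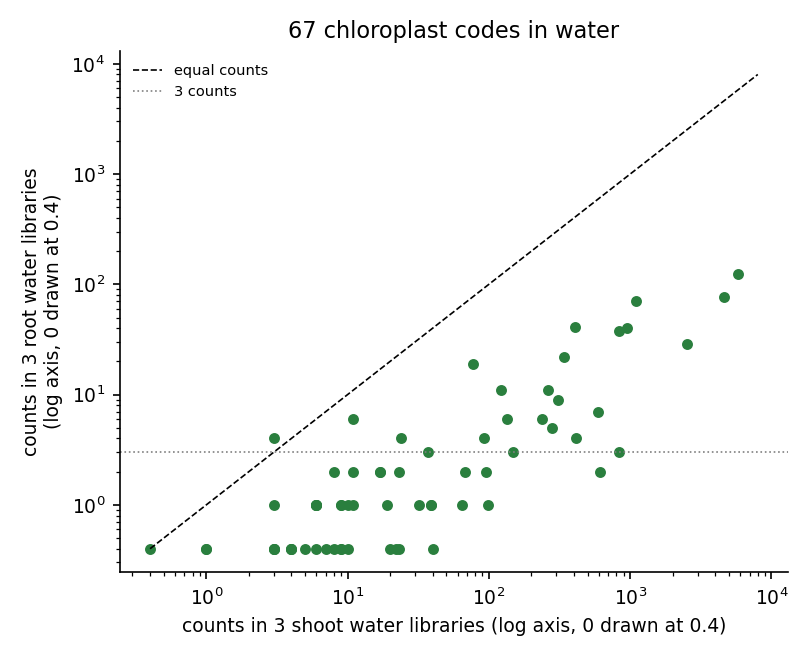
Summed counts of each of the 67 chloroplast codes in the 3 shoot water libraries (horizontal, log axis) and in the 3 root water libraries (vertical, log axis), with 0 drawn at 0.4. Nearly all points lie below the dashed line of equal counts, from ATCG00740 with 5801 against 123 to codes at or under the dotted line of 3 root counts.

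PEG was then compared with water in shoot. After 1 h, 0 of 37 codes were called and 0 had an unadjusted p under 0.05, while 12.4% of all tested genes were called (7.2% higher and 5.16% lower). After 2 h, 0 codes were called and 2 had an unadjusted p under 0.05, 1 in each direction, against 10.7% of all genes called (7.31% higher and 3.41% lower). Over all genes, 25.4% had an unadjusted p under 0.05 at 1 h and 20.1% at 2 h. After 3 h, 0 codes rose and 2 fell, against 17.1% of all genes called, 10.4% higher and 6.7% lower. These are calls of edgeR's quasi-likelihood test. DESeq2 called 0 of 41, 0 of 43 and 5 of 43 codes with an adjusted p at 1 h, 2 h and 3 h, the 5 all lower. The shares of all genes called by DESeq2 are not given here, so its counts have no like value beside them. The 2 codes called at 3 h, both lower, are 5.41% of those tested, near the 6.7% of all genes called lower. At 3 h 30 of the 37 codes had a negative log2 change, and the share of all genes with one is not given here. The median log2 change (PEG over water) of the codes was -0.10, -0.01 and -0.40 at the 3 times, against 0.00, 0.00 and -0.02 over all genes. At 3 h 9 codes, 24.3% of those tested, had an unadjusted p under 0.05 in either direction, against 29% of all genes. All 9 had lower means in PEG. The share of all genes that were lower at that threshold was not computed, so the falls alone have no like value beside them. The median half-width of a code's 95% interval at 3 h was 1.16 log2 units, so moderate changes of most codes were not detectable.

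ATCG00650 had the smallest adjusted p of the tested codes. Its counts in shoot water were 691, 623 and 1226, and after PEG for 3 h they were 204, 247 and 630. As TMM-scaled CPM of the shoot fit, libraries A, B and C had 258, 369 and 391 in water, 243, 233 and 385 at 1 h, 307, 221 and 171 at 2 h, and 182, 86.8 and 156 at 3 h. The 3 libraries of the 3 h group lay below all 3 of water, while the 1 h and 2 h groups overlapped water. The mean went from 339 ± 71.6 in water to 142 ± 49.2 at 3 h (SD, n = 3), a log2 change of -1.28 with a standard error of 0.29 and an adjusted p of 0.00597. Leaving out any 1 of the 6 libraries of water and 3 h kept the call, with adjusted p up to 0.0318. It was lost in a fit of all 24 libraries (log2 change -1.29, adjusted p 0.140), and the authors' deposited table gives an adjusted p of 0.417 for a change of -1.26 with its sign turned to PEG over water.

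ATCG00300 was the other code that fell at 3 h. Its CPM was 124, 88.2 and 113 in water, 128, 93.4 and 114 at 1 h, 108, 91.9 and 76.1 at 2 h, and 96.4, 55.9 and 64.2 at 3 h. The 3 h libraries overlapped water, with A of the 3 h group above B of water. The means were 109 ± 18.5 in water and 72.2 ± 21.4 at 3 h, a log2 change of -0.63 with a standard error of 0.21 and an adjusted p of 0.0405. The call was lost without water A (adjusted p 0.143), water C (0.0777), PEG 3 h B (0.219) or PEG 3 h C (0.140), and in the fit of all 24 libraries (0.452).

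Among the 10 codes with the largest totals, the log2 changes at 3 h ran from -1.28 (ATCG00650) to 0.00 (ATCG00790). ATCG00740 had CPM of 803, 1131 and 553 in water and 606, 392 and 797 at 3 h, with overlapping groups and a log2 change of -0.47 (adjusted p 0.283). ATCG00280 had 514, 1004 and 487 in water and 437, 202 and 507 at 3 h, with a change of -0.80 (adjusted p 0.121). ATCG00340 had 77.1, 111 and 62.5 in water and 36.6, 39.7 and 56.8 at 3 h, so that its groups did not overlap, with a change of -0.86 (adjusted p 0.0683). DESeq2 called ATCG00280 and ATCG00340 lower at 3 h, with adjusted p of 0.0484 and 0.0278.

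ATCG00470 had 173, 81.7 and 109 in water and 110, 50.6 and 54.6 at 3 h, with a change of -0.83 (adjusted p 0.129). ATCG00820 and ATCG00810 had changes of -0.20 and -0.23, with standard errors of 0.40 and 0.42. Their signs turned to positive without water B (0.34 and 0.33) and without PEG 3 h B (0.09 and 0.05), so no direction was held by these codes.

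ATCG00790 and ATCG00800 varied together and set water C apart. Their CPM in water was 117, 152 and 11.5 for ATCG00790 and 162, 204 and 19.8 for ATCG00800. In the other 9 shoot libraries ATCG00790 ranged from 66.0 to 183 and ATCG00800 from 75.5 to 213. Water C was thus the lowest shoot library for both, although it had 3257951 counts in all and the highest CPM of any shoot library for ATCG00650. The ratio of ATCG00790 to ATCG00800 counts stayed between 0.581 and 0.886 over the 12 shoot libraries, with a median of 0.791. The ratio of ATCG00330 to ATCG00340 stayed between 0.513 and 0.778. Both pairs of consecutive codes were singled out after their values were seen. With water C in the fit, the 3 h changes were 0.00 for ATCG00790 (standard error 0.71) and -0.27 for ATCG00800 (standard error 0.65). Without it ATCG00800 was called lower (-0.80, adjusted p 0.0380), and the count of codes called lower at 3 h went from 2 to 5. The share of all genes called in that fit is not given here.

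**Figure D3:**
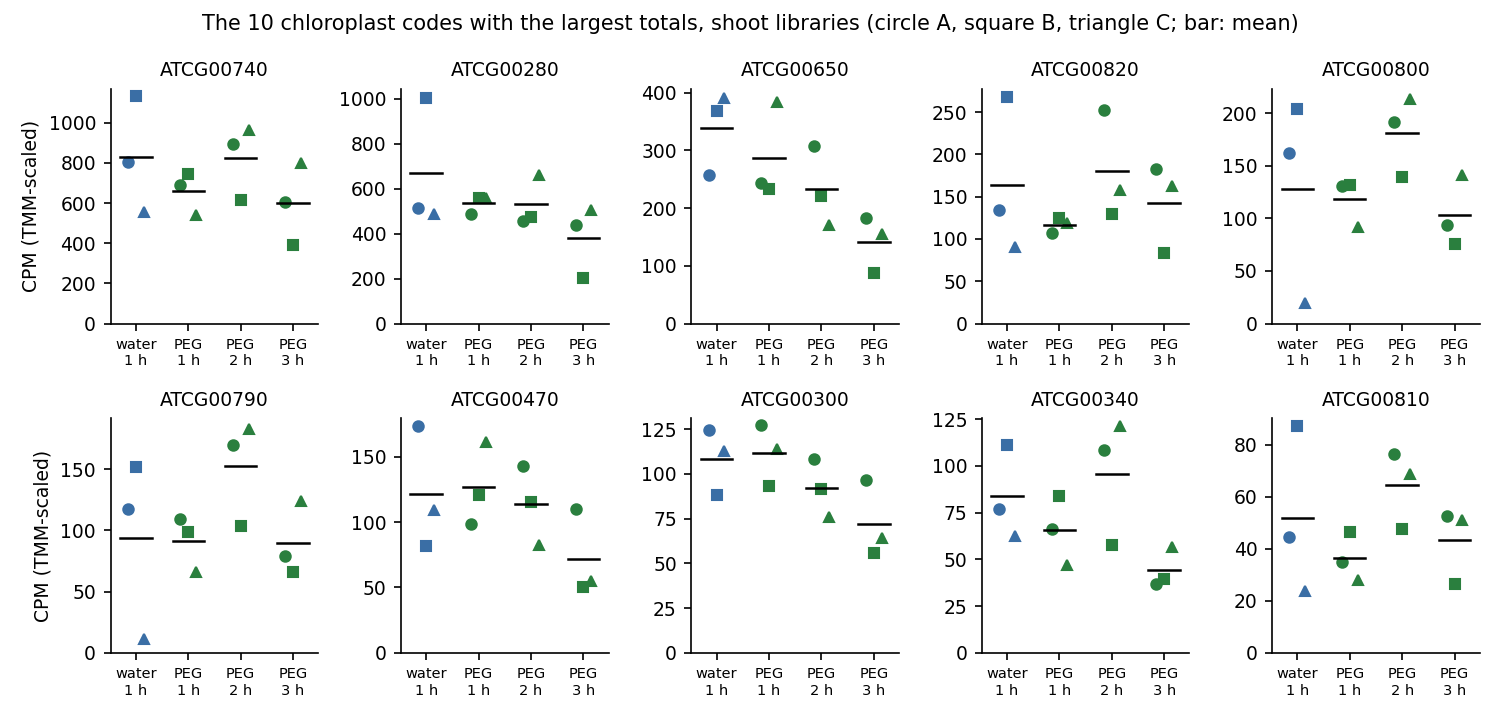
TMM-scaled CPM of the 10 chloroplast codes with the largest totals in the 12 shoot libraries (circle A, square B, triangle C), with a bar at each group's mean. ATCG00650 at 3 h lies between 86.8 and 182, below the 258 to 391 of water, while ATCG00790 and ATCG00800 have 1 water library, C, far below the others.

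Of the 3 codes given with a product 1 was tested with PEG in shoot, and it was not called. ATCG01310 (ribosomal protein L2) had a mean of 4.09 ± 1.46 CPM in water and 2.79 ± 1.92 at 3 h (SD, n = 3), a log2 change of -0.73 with a 95% interval from -1.90 to 0.44. That interval includes falls as large as that of ATCG00300. Before 3 h, the 2 codes with an unadjusted p under 0.05 were ATCG00540, with a log2 change of -2.30 at 2 h (adjusted p 0.196), and ATCG00710, with 0.90 (adjusted p 0.166).

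**Figure D4:**
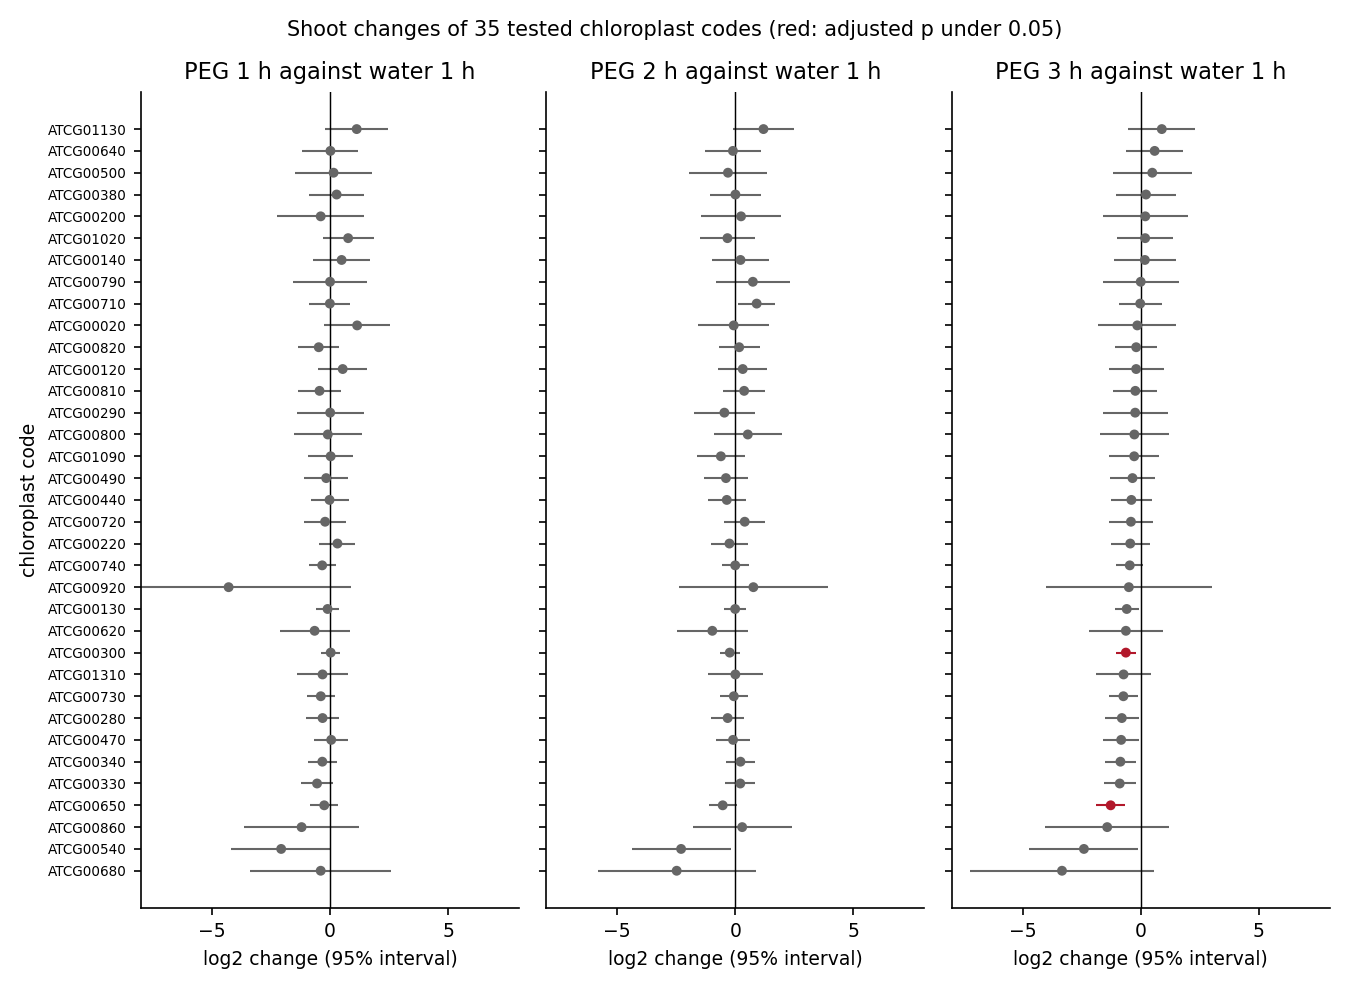
Log2 change of PEG over water in shoot at 1 h, 2 h and 3 h for 35 of the 37 tested chloroplast codes, with 95% intervals (a single interval at 1 h runs past the axis) and the codes in the order of the 3 h change. ATCG00400, whose fit rests on 4 libraries, and 1 other code are not drawn. The red points at 3 h are the codes with an adjusted p under 0.05, ATCG00650 and ATCG00300, and 0 codes are red at 1 h or 2 h.

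The 3 libraries of the shoot PEG 3 h group and 1 of the 2 h group carry another prefix in the library codes of the labels than the water, 1 h and remaining 2 h libraries. What the prefix stands for is not stated. No water library in shoot has the prefix of the 3 h group, so prefix and the 3 h treatment cannot be told apart. The 2 h library with that prefix, C, was also below the 8 shoot libraries with the first prefix for both called codes. It had 171 CPM of ATCG00650 against at least 221 in those 8, and 76.1 of ATCG00300 against at least 88.2. Its chloroplast share of 0.326% lay inside their range of 0.215% to 0.416%.

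In root the 3 water libraries and PEG 1 h A have the prefix of the shoot 3 h group, and the other 8 PEG libraries have another prefix, which no water library has, so prefix and PEG at 2 h and 3 h cannot be told apart in root either. Shoot water and root water also differ in prefix. Within the prefix found in both tissues, 4 shoot libraries, all PEG, had chloroplast shares of 0.137% to 0.326%, and 4 root libraries had 0.00335% to 0.0113%.

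In root, 0 of 10 tested codes were called at each time. Over all genes 0.472%, 0.185% and 0.226% were called at 1 h, 2 h and 3 h, so few genes of any kind passed. By edgeR 1, 1 and 0 codes had an unadjusted p under 0.05, the same code ATCG00800 both times, beside 12.8%, 8% and 7.82% of all genes. DESeq2 called 0 codes at each time. The median log2 change of the 10 codes was 0.97, 0.43 and 0.05, against 0.13, 0.06 and 0.11 over all genes, and the median half-width of the 95% intervals was 1.97, 1.94 and 2.03. The 10 codes passed the filter because their counts were high enough in some root group, so they do not stand for the 57 that were not tested.

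ATCG00740 had root counts of 65, 4 and 54 in water, 72, 165 and 610 at 1 h, 8, 245 and 912 at 2 h, and 38, 28 and 364 at 3 h. Its CPM was 19.2, 3.02 and 34.3 in water, 26.6, 94.9 and 137 at 1 h, 3.92, 32.6 and 159 at 2 h, and 8.40, 18.7 and 76.2 at 3 h. Library C was the highest in every group, and the groups overlapped. The log2 changes were 2.18 (adjusted p 0.425), 1.79 (0.737) and 0.88 (0.827). Without library C of the 2 h group the 2 h change was 0.04, and without library C of the 3 h group the 3 h change was -0.58. This code held between 6.35% and 51.6% of the chloroplast counts of a root library, and without it the mean share of the root groups was 0.00631% in water, 0.0125% at 1 h, 0.00914% at 2 h and 0.00845% at 3 h.

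ATCG00800 had 1, 0 and 2 counts in root water, 3, 2 and 91 at 1 h, 3, 2 and 120 at 2 h, and 8, 5 and 15 at 3 h. ATCG00790 had 1, 0 and 1 in water, 0, 4 and 51 at 1 h, 1, 0 and 80 at 2 h, and 4, 1 and 15 at 3 h. At 1 h and 2 h nearly all the counts of both codes lay in library C. ATCG00280 had CPM of 11.8, 16.6 and 8.90 in water, 9.99, 9.77 and 8.31 at 1 h, 16.7, 6.65 and 9.92 at 2 h, and 9.29, 44.2 and 8.79 at 3 h. Its highest root library was thus PEG 3 h B, and the groups overlapped. Its log2 changes of -0.40, -0.20 and 0.67 had standard errors of 0.60, 0.59 and 0.59, and the 3 h change turned to -0.44 without PEG 3 h B. The 2 h change turned positive without water B (0.03) and without PEG 2 h B (0.07).

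The root change minus the shoot change was tested in 1 fit of all 24 libraries. Shoot and root libraries share letters in the labels, which do not state whether a letter marks the same pool. This fit, also used for the tissues in water, took the libraries as independent, and pairing across tissues was not checked. Of 37 codes, 0 were called at 1 h, 2 h and 3 h, against 1.33%, 1.2% and 2.6% of all genes. DESeq2 called 0 at each time. By edgeR 0, 2 and 1 codes had an unadjusted p under 0.05, beside 16.3%, 8.05% and 12.7% of all genes. ATCG00220 at 3 h (2.85, standard error 1.31, adjusted p 0.360), ATCG01130 at 2 h (-2.91, standard error 1.31, adjusted p 0.558) and ATCG00140 at 2 h (-1.85, standard error 0.87, adjusted p 0.587) were these codes. The ATCG00220 value rests on root PEG 3 h B, with 50 counts where the other root libraries had 1 to 15. The median half-width of the intervals was at least 2.70 log2 units, so most differences between the tissues in response were not detectable.

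Several chloroplast codes had most of their shoot counts in 1 or a few libraries, and these codes were picked after their values were seen. ATCG00260 had 502 counts in shoot PEG 3 h B and 0 to 3 in each of the other 11 shoot libraries, so 98.9% of its depth-scaled counts lay in 1 library. ATCG00400 had 37 and 322 counts in PEG 1 h B and C and 418 and 148 in PEG 2 h A and B, and 0 to 4 in the other shoot libraries. These 4 libraries have consecutive codes in the labels. At 3 h it had 0 counts in all 3 libraries.

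ATCG00680 had 238 counts in water B and 292 in PEG 1 h A, against 8 to 45 elsewhere in shoot. ATCG00540 had 194, 54 and 13 in water and 10 to 77 in the PEG libraries. ATCG00920 had 371 in PEG 2 h A, 98 in PEG 3 h C, 86 in water B and 52 in PEG 2 h B, and at most 11 elsewhere in shoot. ATCG00530 (CemA-related) had 65 of its 82 shoot counts in PEG 2 h A, the library that also held 39 counts of ATCG00520. No group of 3 shares the high values in any of these codes.

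Over the 36 chloroplast codes with at least 100 shoot counts, 4 (11.1%) had 40% or more of their depth-scaled counts in 1 library, against 12 of 8989 genes (0.134%). The median share of the fullest library was 14.9% for the codes and 12% for all genes. ATCG00740, in contrast, had 12.8% in its fullest library. Whether molecular identifiers were collapsed before counting is not given in the sources used here, and the part of amplification in these values was not tested.

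**Figure D5:**
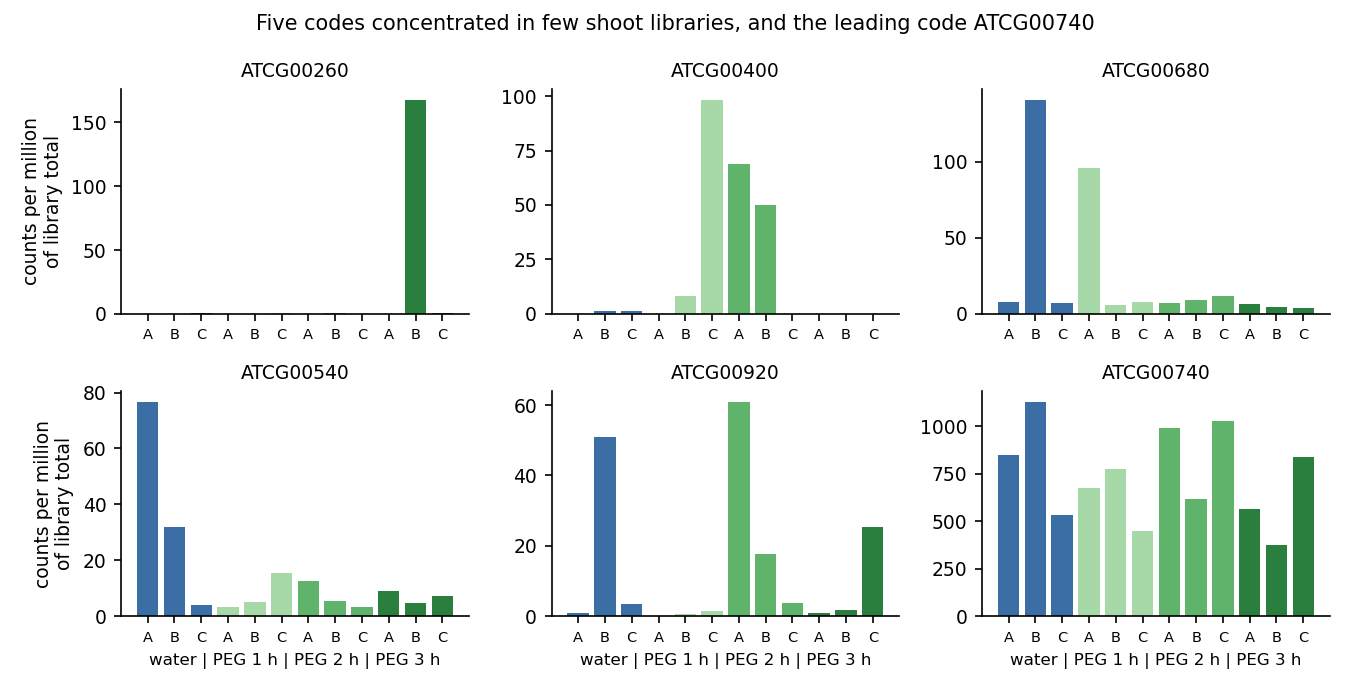
CPM by library total in the 12 shoot libraries for 5 chloroplast codes concentrated in few libraries and for ATCG00740, the code with the largest total (bars start at 0, 1 bar for each library, blue for water and green for PEG). ATCG00260 has 1 high library, PEG 3 h B, and ATCG00400 has 4 high libraries, while ATCG00740 is high in all 12.

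Nuclear genes that serve the chloroplast genome, whose mRNAs carry poly(A) tails, were read from the same libraries. Of 21 listed genes for plastid transcription 15 were tested in shoot, and at 3 h 3 rose and 0 fell, beside 10.4% of all genes called higher and 6.7% lower. SIG4, a sigma factor of the plastid-encoded polymerase, went from 7.35 ± 2.20 to 16.2 ± 2.39 CPM (SD, n = 3), a log2 change of 1.09 (adjusted p 0.00551), and it had also risen at 1 h (0.81, adjusted p 0.0447). SIGC, another sigma factor, went from 19.6 ± 2.68 to 32.1 ± 0.888 CPM, a change of 0.74 (adjusted p 0.00901). PTAC6, a protein of the plastid transcription complex, rose by 0.54 (adjusted p 0.0468). SIGA, also a sigma factor, went the other way, with -1.17 at 3 h (adjusted p 0.0921), and was not called. By edgeR 4 of the 15 genes, SIGA among them, had an unadjusted p under 0.05 at 3 h, beside 29% of all genes. The median log2 change of the 15 genes at 3 h was 0.24, against -0.02 over all genes and -0.40 over the chloroplast codes. At 1 h 1 of the listed genes rose and 0 fell, beside 7.2% of all genes called higher and 5.16% lower. By edgeR 3 had an unadjusted p under 0.05 at 1 h, beside 25.4% of all genes. These were SIG4, SIGA (-1.13, adjusted p 0.0944) and FLN2 (-1.30, adjusted p 0.0511). At 2 h 0 were called by edgeR or DESeq2, and 2 had an unadjusted p under 0.05 by edgeR, beside 20.1% of all genes. DESeq2 called 2 of the listed genes at 3 h, with no share over all genes given here.

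Of 10 listed genes for plastid RNA decay and RNA binding 7 were tested, and at 3 h 0 were called by edgeR or DESeq2. By edgeR 1 had an unadjusted p under 0.05 at 3 h, beside 29% of all genes. At 2 h both tools called 0, and 0 had an unadjusted p under 0.05, beside 20.1% of all genes. CRB, an RNA-binding protein of the chloroplast, was the 1 gene of the list called at 1 h, where it fell (log2 change -0.71, adjusted p 0.0171, beside 5.16% of all genes called lower), and had -0.51 at 3 h (adjusted p 0.0712). RBP31, which binds chloroplast mRNA, had a change of 0.23 at 3 h (adjusted p 0.310). The median of these genes at 3 h was 0.05.

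A list of 24 nuclear genes, here the subunit list, held subunits of the photosystems, cytochrome complex, ATP synthase and Rubisco. It also held plastocyanin, an electron carrier that is not a subunit of these complexes. All 24 were tested, and at 3 h 0 rose and 1 fell, beside 6.7% of all genes called lower. This was PETE1, a plastocyanin, from 667 ± 31.1 to 453 ± 21.8 CPM, a log2 change of -0.56 (adjusted p 0.00715), and it had also fallen at 2 h (-0.50, adjusted p 0.0210), the 1 call of the list at that time, beside 3.41% of all genes called lower. PSBX, a small subunit of photosystem II, was the 1 call at 1 h, where it fell (-2.01, adjusted p 0.0351, beside 5.16%). PSAF, a subunit of photosystem I, had a change of -1.57 at 3 h with a standard error of 0.57 (adjusted p 0.0975). The median of the 24 at 3 h was -0.18. The calls of SIGC and PETE1 at 3 h were lost in the fit of all 24 libraries, with adjusted p of 0.262 and 0.255.

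In root 0 genes of the 3 nuclear lists were called by edgeR at any time. Those with an unadjusted p under 0.05 at 1 h were 2 RNA decay and binding genes, beside 12.8% of all genes. At 2 h there was 1 gene of the subunit list, beside 8%, and at 3 h 1 RNA decay and binding gene, beside 7.82%. DESeq2 called 0 of the listed genes at each time. At 3 h CP29, another chloroplast RNA-binding protein, went from 288 ± 88.1 to 187 ± 33.6 CPM in root (SD, n = 3), a log2 change of -0.62 (adjusted p 0.556), and RBP31 had -0.44 (adjusted p 0.730). MURE and PDE312, both listed for plastid transcription, had changes of 1.48 (adjusted p 0.731) and 1.40 (adjusted p 0.773), from means in water of 0.660 and 0.507 CPM. ATPD, a subunit of the ATP synthase, had 0.62 (adjusted p 0.696), and PSAL, a subunit of photosystem I, had -0.59 (adjusted p 0.715).

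In water the genes that passed the filter in root libraries alone were 9 for transcription, 5 for RNA decay and binding and 18 of the subunit list. All of these were lower in root than in shoot, with median log2 changes of -2.91, -3.28 and -7.04, beside -5.34 for the 10 chloroplast codes that passed there and 20% of all such genes called lower. The further 6, 2 and 6 genes tested in the fit of 24 libraries were also lower in root, but they passed through shoot, where they are high. Mitochondrial codes, which also come from an organelle, had 2 lower at 2 h and 1 lower at 3 h among 9 tested in shoot, beside 3.41% and 6.7% of all genes called lower.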

How the data were processed

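RNA was measured by MARS-seq in 24 libraries, grouped by their source names, since the tissue field reads root for all. Raw counts for every gene were deposited by the authors. Per the submitters' processing notes the tools were STAR 2.4.2a, HTSeq, cutadapt, bcl2fastq and DESeq2. Build, annotation, strand setting and collapsing of molecular identifiers: not given in the sources used here. The deposited log2 changes, which have their sign opposite to those made here for 93.6% to 98.7% of genes, were turned. The deposited adjusted p-value was used only where named. The authors' normalized signal columns were not used.

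Counts were analysed in R 4.3.3 with edgeR 4.0.16 (filterByExpr, TMM, quasi-likelihood), and a gene counts as called when its p, adjusted by Benjamini-Hochberg inside each of the 10 contrasts, is under 0.05. PEG was tested in 12 libraries per tissue (9207 genes in shoot, 9751 in root), and tissues and differences of change in all 24 (10967 genes). DESeq2 1.42.0 was an alternative. The biological coefficient of variation was 17.2% in shoot and 34.2% in root. Scripts were tested on simulated data. No replicate pair was a duplicate (chi-square per degree of freedom at least 2.30). P-values measure the spread between pools of seedlings. The chloroplast share of libraries was not tested.

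The members and lists were chosen with earlier results of these data known. Genes named were the 10 codes with the largest totals, codes called with PEG, the 4 largest and 4 smallest changes between tissues, and the 2 smallest adjusted p values per nuclear list and tissue at 3 h. Others were chosen after their values were seen. The values of 1 member are not reported here on their own.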

Additional observations from a re-analysis of the deposited data

How the results depend on the processing

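The count of chloroplast codes lower in shoot at PEG 3 h was 2, became 5 with DESeq2 and 1 (ATCG00540) in a fit of all 24 libraries, and ranged from 1 to 5 when a library of the groups compared was left out. It was 1 without water A or PEG 3 h B and 5 without water C. For these PEG counts, the shares of all genes called under the alternatives are not given here. At 1 h the count of 0 became 1 with no filter on low counts (ATCG00170, with 8 water counts) and ranged from 0 to 2, and at 2 h it ranged from 0 to 1. The calls without water C at 1 h were ATCG00540 (lower) and ATCG01020 (higher), and at 2 h ATCG00540 (lower). Counts in root and of the differences between tissues were 0 under every alternative run. The tissue count of 35 ranged from 34 to 48, and was 10 of 10 among codes that passed the filter in root alone. The number of codes tested also differed between alternatives, with 37 in the main fit and 64 given an adjusted p by DESeq2. The change of ATCG00790 at 3 h ranged from -0.55 (without water C) to 0.52 (without water B) and turned positive with no filter (0.012), in the fit of all libraries (0.0096), with the replicate block (0.13), and without water A (0.22), PEG 3 h A (0.07) or PEG 3 h B (0.19), and that of ATCG00800 without water B (0.22, lowest -0.80), that of ATCG00810 without water B (0.33, lowest -0.59) or PEG 3 h B (0.05), and that of ATCG00820 without water B (0.34, lowest -0.49) or PEG 3 h B (0.09). In root the change of ATCG00280 at 2 h (-0.20) was 0.0051 with library totals alone and ranged from -0.57 to 0.075 when a library was left out, and at 3 h (0.67) it ranged from -0.44 (without PEG 3 h B) to 1.06, while that of ATCG00740 at 3 h (0.88) ranged from -0.58 (without PEG 3 h C) to 1.51. The causes were not tested. CRB at 3 h passed with library totals alone (adjusted p 0.0424) and without water C (0.0104), PSAF with DESeq2 (0.0437) and without water C (0.0157), and ATCG00470 without PEG 3 h A (0.0141). Without ATCG00740 the chloroplast share was 0.181% for shoot PEG 1 h and 0.222% for shoot PEG 2 h. Scaling by library totals alone moved the median log2 of all genes from -0.02 to 0.28 in root against shoot, and the share of calls that were higher from 50.9% to 62.3%, and in the differences between tissues that share went from 17.8%, 20.5% and 22.1% to 42.1%, 31.4% and 36.9%. Replicate letters did not pair libraries in shoot (correlation of same-letter deviations -0.39 to 0.13). In root these correlations ran from -0.53 to 0.68, with a median of 0.10 against -0.05 for different letters. Those between the C libraries of root ran from 0.07 to 0.68, so pairing by letter in root remained unsettled. A fit with the letter as a replicate block called 2 codes at shoot 3 h and 0 in root. In root, 57 codes had too few counts to test. Shares with a letter left out of every group, and the subset of genes that passed the filter in root alone, were chosen after seeing the data.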
